A study of Mus musculus with 6 samples.

Results

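The 36 genes described here carry out or control the synthesis, transport and oxidation of cholesterol, and they were followed in mouse lung fibroblasts with and without DKK1. They were chosen by function, as rows whose Ensembl identifier maps to a set of named sterol genes that was drawn up with earlier results of these data in view. All 36 were found among the 45706 genes of the table. They comprise 4 oxysterol and bile acid enzymes, 7 early mevalonate enzymes, 11 sterol ring enzymes, 5 regulators of SREBP, 6 genes of transport, storage and efflux, and 3 further genes (the LXR receptors and Mylip). The fibroblasts came from wild-type mice. Perfused lungs were digested with collagenase and trypsin, the outgrowing cells were kept for 7 days and then detached and purified. The 3 control samples were left without DKK1, and no vehicle is described for them. The 3 DKK1 samples were exposed for 24 hours to the recombinant mouse protein, at a concentration of 30 ng/ml. DKK1 (Dickkopf-1) is secreted by cells and blocks canonical Wnt signalling at its LRP co-receptors. Each group holds replicates numbered 1 to 3. The labels do not say whether these were separate animals or separate dishes, so the p-values below measure the spread between these samples, which may be technical.

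As background, cells make cholesterol from acetyl-CoA through mevalonate, squalene and lanosterol. The genes of this route are switched on by SREBP2, a transcription factor held in the endoplasmic reticulum by SCAP and the INSIG proteins while sterols are plentiful. Oxysterols are oxidised cholesterol molecules: 25-hydroxycholesterol, made by Ch25h, binds INSIG and so keeps SREBP2 inactive, and oxysterols also activate the LXR receptors, which switch on the cholesterol exporters Abca1 and Abcg1. Cyp7b1 breaks 25-hydroxycholesterol down or, starting from it, makes the ligand of the immune-cell receptor Gpr183.

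The libraries held 22.6 to 34.7 M expected counts (M, 1000000), and 3 counts, read here as the floor of detection, correspond to 0.0864 to 0.133 CPM (counts per M, each count scaled to its library's total). Such floors cover counting error only. In the first principal component of log2 CPM, with 32.9% of the variance, replicate 3 of both groups stood apart from replicates 1 and 2, and the second component, with 25.5%, separated DKK1 from control. The summed level of 8 fibroblast markers (Col1a1, Col1a2, Col3a1, Pdgfra, Dcn, Lum, Thy1 and Vim) was 12300 to 14700 CPM across the 6 libraries. The 6 smooth muscle and pericyte markers summed to 7620 to 10000 CPM. Macrophage, epithelial, endothelial and mesothelial markers were present at much lower levels, and their sums were highest in the replicate 3 libraries of both groups. The 8 macrophage markers summed to 834 to 886 CPM in the replicate 3 libraries against 413 to 506 CPM in the other 4. In whole-sample RNA, fewer cells of a type and less RNA per cell cannot be told apart.

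Ch25h rose with DKK1, and no other of the 36 genes was called by edgeR's quasi-likelihood test of unpaired groups, adjusted by the Benjamini-Hochberg method over all genes tested and read at an adjusted p under 0.05. When the replicate number was added to that model as a block, 4 genes were called, all higher: Ch25h, Cyp7b1, Abca1 and Soat1. DESeq2 with the same block called Ch25h alone of these. All 36 genes passed the filter on low counts. The background was 131 of 14635 genes tested (0.895%, or 0.697% counting those called higher) without the block and 1379 (9.42%, or 4.96% called higher) with it. By limma-voom the share called was 0.888% of the same 14635 genes. With both replicate 3 samples left out it was 1.0% of 14868 genes, and 7.12% with the block besides. Over the 23883 genes with any count it was 1.21% by DESeq2, 2.31% by DESeq2 with the block and 1.38% by edgeR without a filter on low counts. Shares on these unlike bases are not directly comparable. Because the genes were chosen with this contrast known, nothing is read from their count against that background, and the p-values of this contrast are given as descriptions. The fitted log2 fold change was positive in 24 of the 36 genes and negative in 12, with a median of 0.021 against -0.001 over all genes tested. In 5 genes the ranges of control and DKK1 values were separate, with Ch25h, Cyp7b1 and Abca1 higher and Dhcr7 and Insig2 lower in the DKK1 libraries; over all genes tested this held for 16.5% (9.4% higher and 7.14% lower).

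**Figure D1:**
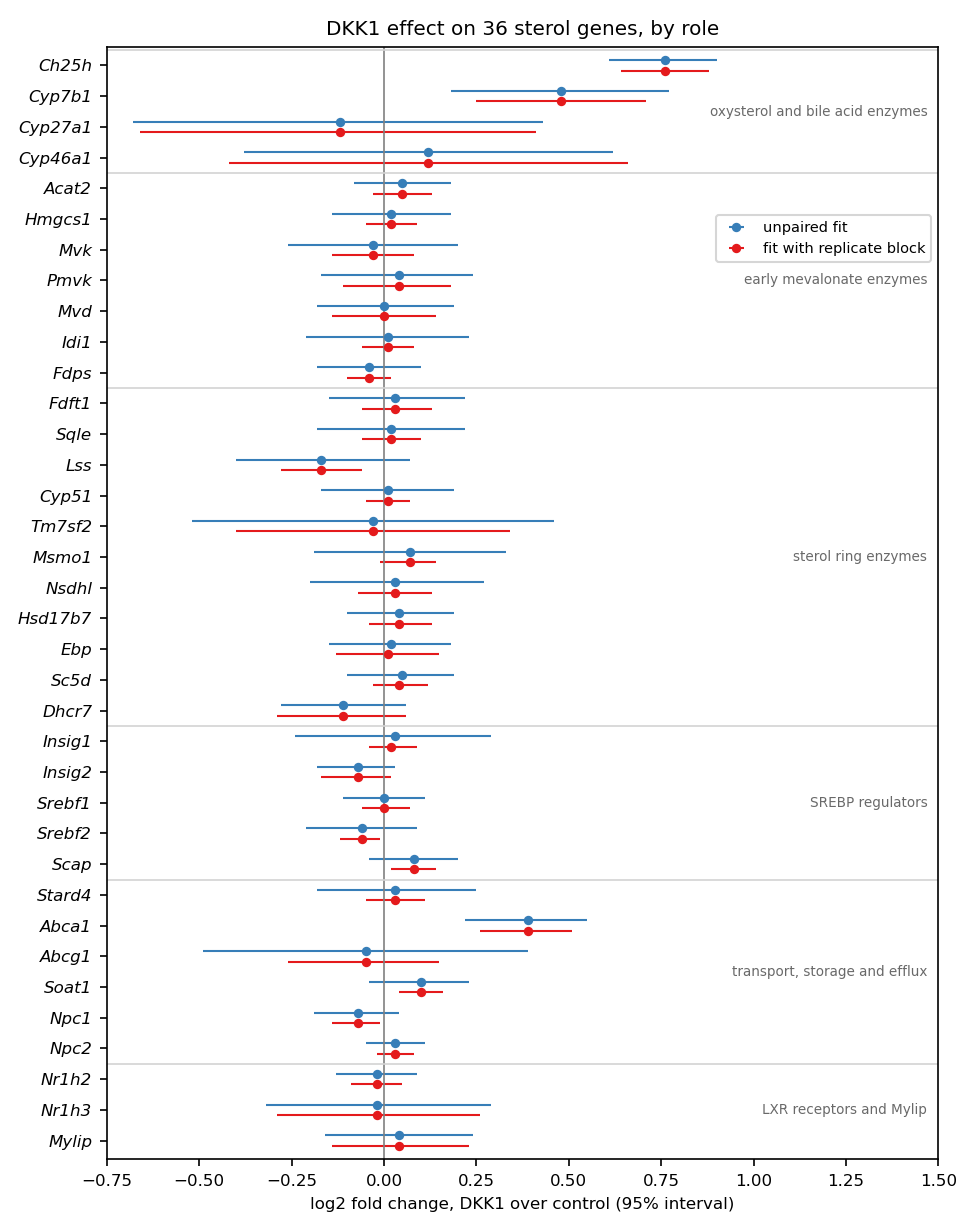
Log2 fold change, DKK1 over control, for each of the 36 genes, with its 95% interval, in the unpaired fit (blue) and in the fit with the replicate number as a block (red); genes are grouped by role. Ch25h lies at 0.76 and Abca1 at 0.39, while the 18 synthesis enzymes lie between -0.17 and 0.07.

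Ch25h makes 25-hydroxycholesterol and lies on one exon at chr19:34473778-34475164, minus strand, in GRCm38 (ENSMUSG00000050370). Its level was 15.3, 14.8 and 17 CPM in control replicates 1 to 3 and 26.7, 26.3 and 26.6 CPM in the DKK1 replicates. Every DKK1 library was above every control library, and the DKK1 libraries lay closer together than the controls. The means were 15.7 ± 1.16 CPM in control and 26.6 ± 0.213 CPM with DKK1 (SD, n = 3 each). The rise was 1.69-fold, a log2 fold change of 0.76 (SE 0.06, 95% interval 0.61 to 0.90), with an adjusted p of 0.0022 in the unpaired edgeR fit and 1.69e-06 with the replicate block. Within same-numbered pairs the log2 difference was 0.81, 0.83 and 0.65, positive in all 3. Gm26902, a gene on the opposite strand, overlaps Ch25h; it had 24.0 to 43.2 counts per library, at most 7.57% of those of Ch25h, and was not called (log2 fold change 0.34, edgeR adjusted p = 0.684). Without knowledge of strand in the counting, reads from the overlap cannot be told apart. Macrophages are a known source of Ch25h. The 8 macrophage markers summed to 413 to 834 CPM in control and 464 to 886 CPM with DKK1, and none was at 0. Lyz2 made up most of these sums, with means of 479 and 501 CPM. None of the 8 was called unpaired, the largest estimates being those of Marco (log2 fold change 1.65, edgeR adjusted p = 0.116) and Itgam (1.07, adjusted p = 0.136). Marco was at 3.86 to 10.6 CPM in control and 14.5 to 29.3 CPM with DKK1. Itgam was at 11.5 to 20.6 CPM in control and 25.0 to 43.2 CPM with DKK1. The groups did not overlap for either, and they overlapped for the other macrophage markers. With the block Marco, Itgam and Adgre1 were called higher and Csf1r and Mrc1 lower. The log2 difference of Ch25h between replicates 3 and 2 was 0.08, and the DKK1 effect was 0.81 (edgeR adjusted p = 0.00636) with both replicate 3 samples left out. The 6 smooth muscle and pericyte markers summed to 8940 to 10000 CPM in control and 7620 to 8940 CPM with DKK1, and Myh11 among them was called lower (log2 fold change -0.30, adjusted p = 0.00387). With the block 5 of these 6 were called lower: Acta2, Myh11, Cnn1, Tagln and Cspg4. Of the 8 fibroblast markers none was called unpaired; with the block Dcn (log2 fold change 0.62, adjusted p = 9.73e-06) and Pdgfra (0.27, adjusted p = 9.74e-07) were called higher, and Col1a1, Col1a2, Thy1 and Vim lower. The part of these markers in the result was not tested.

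The promoters of Ch25h and Abca1, the pair of genes with the largest rises at levels above 10 CPM, are shown as they stand before the annotated starts (RefSeq, GRCm38.p6, minus strand for both). Capitals mark a match to an NF-kB consensus (GGGA, any 4 bases, CC), the only one of the motifs searched that was found in either window; a match is a description of letters, not of a bound site. Ch25h, chr19:34475165-34475398, and Abca1, chr4:53159896-53160145, read as follows.
Ch25h: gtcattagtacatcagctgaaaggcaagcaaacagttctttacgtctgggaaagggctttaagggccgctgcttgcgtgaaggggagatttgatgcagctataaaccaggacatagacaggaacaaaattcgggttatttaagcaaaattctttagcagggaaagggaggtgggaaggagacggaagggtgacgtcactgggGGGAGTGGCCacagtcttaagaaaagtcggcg
Abca1: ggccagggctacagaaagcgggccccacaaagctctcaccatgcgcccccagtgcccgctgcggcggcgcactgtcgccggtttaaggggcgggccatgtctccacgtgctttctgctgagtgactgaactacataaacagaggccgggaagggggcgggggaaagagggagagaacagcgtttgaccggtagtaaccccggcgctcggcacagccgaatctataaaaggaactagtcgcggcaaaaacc
In the full promoter windows of 300 bases, the NF-kB consensus was found on either strand in 20.7% of 32817 mouse promoters. It was in 14 of the 38 promoters of 29 of the genes here (36.8%), and among these in 8 of the 18 promoters of synthesis enzymes (44.4%). The window of Abca1 holds none of the motifs searched, which says only that those letters are not in it.

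Cyp7b1, the 7-alpha-hydroxylase acting on oxysterols (chr3:18071950-18243338, minus strand), was at 8.11, 5.98 and 6.49 CPM in control and at 9.73, 10.2 and 8.63 CPM with DKK1. The groups did not overlap, although the highest control and the lowest DKK1 library were close. The means were 6.86 ± 1.11 and 9.52 ± 0.804 CPM (SD, n = 3 each). The log2 difference of 0.48 (SE 0.13) was not called in the unpaired edgeR fit (adjusted p = 0.199) and was called with the replicate block (SE 0.11, adjusted p = 0.0107), but not by DESeq2 with the block (adjusted p = 0.229). All 3 same-numbered pairs were higher with DKK1, by 0.26, 0.77 and 0.41 on the log2 scale. The mitochondrial sterol 27-hydroxylase Cyp27a1 and the 24-hydroxylase Cyp46a1, known chiefly from neurons, were expressed near 1 CPM. Neither was called: for Cyp27a1 the log2 estimate was -0.12 (95% interval -0.68 to 0.43, edgeR adjusted p = 0.922), and for Cyp46a1 it was 0.12 (95% interval -0.38 to 0.62, adjusted p = 0.918). These intervals are wide, and that of Cyp46a1 includes the estimate for Cyp7b1.

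**Figure D2:**
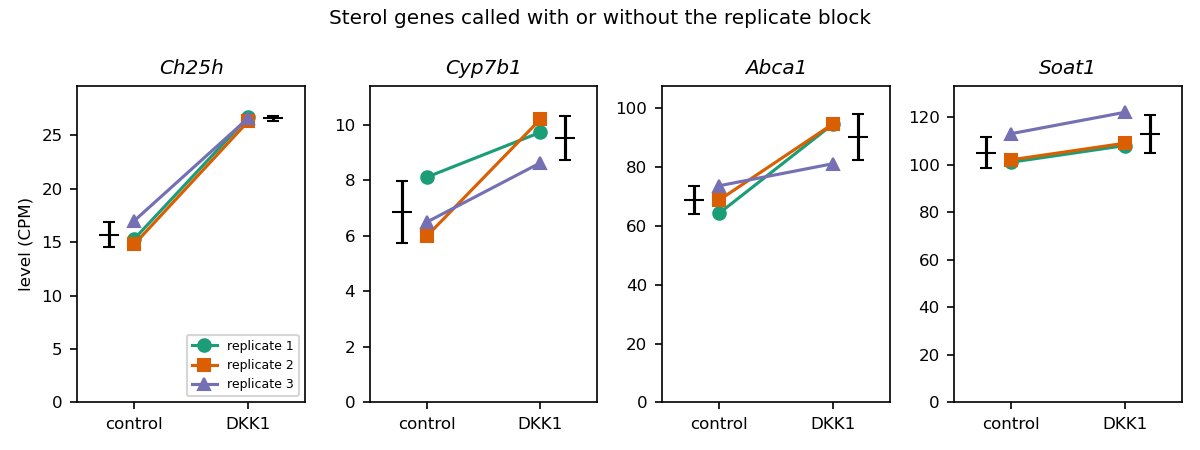
Level in CPM (axis from 0) of the 4 genes called without or with the replicate block, in each library; lines join samples with the same replicate number, and black marks give mean ± SD (n = 3). Ch25h separates the groups widely, Abca1 rises least in replicate 3, and the Soat1 groups overlap while each pair rises.

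Among genes of efflux and storage, Abca1, which exports cholesterol to lipid-poor apolipoproteins (chr4:53030787-53159895, minus strand), was at 64.2, 68.7 and 73.6 CPM in control and at 94.5, 94.6 and 81.1 CPM with DKK1. The groups did not overlap, and replicate 3 had both the highest control and the lowest DKK1 value. Mean levels were 68.8 ± 4.71 and 90.1 ± 7.76 CPM (SD, n = 3 each), and the log2 difference was 0.39 (SE 0.07, 95% interval 0.22 to 0.55). The unpaired edgeR fit did not call it (adjusted p = 0.0588), and the fit with the replicate block did (SE 0.06, adjusted p = 0.000544). DESeq2 called it without the block (adjusted p = 0.000295) and not with it (0.078). Same-numbered pairs differed by 0.56, 0.46 and 0.14 on the log2 scale. With both replicate 3 samples left out the unpaired log2 fold change was 0.50 (adjusted p = 0.00999), and without the DKK1 replicate 3 sample alone the adjusted p was 0.0159, in a fit that called 0.928% of all genes. Leaving out any other single sample gave no call (adjusted p = 0.0671 to 0.23).

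Soat1 esterifies cholesterol for storage in droplets (chr1:156424525-156474331, minus strand). It was at 101, 102 and 113 CPM in control and at 108, 109 and 122 CPM with DKK1. The groups overlapped because replicate 3 was highest in each, while every pair was higher with DKK1. The log2 fold change was 0.10 (edgeR adjusted p = 0.644 unpaired, 0.0386 with the block), and with both replicate 3 samples left out the blocked fit did not call it, at a similar log2 fold change of 0.09 (adjusted p = 0.136). DESeq2 with the block did not call it either (adjusted p = 0.675). Abcg1, the exporter to HDL, did not follow Abca1 in these values: it was at 7.44, 6.86 and 9.62 CPM in control and at 7.26, 6.13 and 9.93 CPM with DKK1. Its log2 fold change was -0.05, with a 95% interval of -0.49 to 0.39 (adjusted p = 0.968), whose upper bound equals the rounded estimate for Abca1. With the block the interval was -0.26 to 0.15 for Abcg1 and 0.26 to 0.51 for Abca1; the difference between these genes was not tested. The lysosomal cholesterol carriers Npc1 and Npc2 and the cytosolic carrier Stard4 were not called in either fit, with log2 fold changes of -0.07 to 0.03.

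None of the 18 enzymes of cholesterol synthesis was called, in the unpaired edgeR fit (0 at an unadjusted p under 0.05), by DESeq2 or by limma-voom, and with the replicate block none was called either (1, Lss, at an unadjusted p under 0.05). Their log2 fold changes ran from -0.17 to 0.07, 13 positive and 5 negative, with a median of 0.018. Hmgcs1 condenses acetyl groups at the entry to the mevalonate route. It was at 99.8, 119 and 105 CPM in control and at 108, 116 and 106 CPM with DKK1, so that the groups overlapped fully (log2 fold change 0.02, adjusted p = 0.961). Gm48342 overlaps it on the opposite strand and was not analysed here. Sqle, the squalene epoxidase and a slow step of the route, was at 67.8, 79.8 and 64.8 CPM in control and at 71.9, 77.5 and 67.0 CPM with DKK1 (log2 fold change 0.02, adjusted p = 0.970). A p that misses the threshold does not show equal levels: the 95% intervals of the 18 enzymes together spanned -0.52 to 0.46, both ends set by Tm7sf2, a sterol reductase at about 3 CPM, and -0.40 to 0.33 without it. With the block they spanned -0.40 to 0.34, and -0.29 to 0.18 without Tm7sf2.

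Lss, which closes squalene epoxide into lanosterol, had the lowest estimate of the 18 enzymes. It was at 45.4, 45.4 and 35.4 CPM in control and at 36.8, 40.8 and 35.2 CPM with DKK1, with the control replicate 3 library below the first 2 DKK1 libraries. The log2 fold change was -0.17 (edgeR adjusted p = 0.650 unpaired, 0.0587 with the block). In the blocked fit without both replicate 3 samples it was -0.23 and was called lower (adjusted p = 0.022). Dhcr7, the last reductase before cholesterol, was lower in every DKK1 library (10.6, 10.1 and 10.7 CPM) than in every control library (10.9, 11.6 and 11.3 CPM). The difference did not pass the test (log2 fold change -0.11, adjusted p = 0.677).

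The 5 regulators of SREBP were not called in either fit by edgeR (0 at an unadjusted p under 0.05 unpaired; Srebf2 and Scap with the block), nor by DESeq2 or limma-voom. Insig1, the retention protein that is itself a target of SREBP, was at 94.2, 105 and 80.2 CPM in control and at 97.9, 106 and 81.8 CPM with DKK1. Each pair was nearly level and the spread ran between replicate numbers (log2 fold change 0.03, 95% interval -0.24 to 0.29 unpaired and -0.04 to 0.09 with the block). Srebf2, which encodes SREBP2, was at 164, 182 and 162 CPM in control and at 162, 176 and 151 CPM with DKK1. It was lower with DKK1 in all 3 pairs, by little (log2 fold change -0.06, adjusted p = 0.830 unpaired and 0.186 with the block). Insig2 was at 31.3, 31.3 and 32.0 CPM in control and at 28.9, 30.6 and 30.7 CPM with DKK1; its groups did not overlap, with a log2 fold change of -0.07 (adjusted p = 0.650). Srebf1 and Scap, the escort protein, had log2 fold changes of 0.00 and 0.08. The LXR receptors Nr1h2 and Nr1h3, and Mylip, an LXR target whose product marks the LDL receptor for degradation, had log2 fold changes of -0.02, -0.02 and 0.04 and were not called in either fit.

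Of 43 further genes of sterol, isoprenoid and fatty acid metabolism in 5 lists, 37 were tested and none was called in the unpaired edgeR fit (2 at an unadjusted p under 0.05; DESeq2 called 1, Nus1, and limma-voom 0). With the replicate block 2 were called (5.41% of those tested), both higher, against 9.42% of all genes tested in that fit (4.96% called higher). Nothing is read from that count. Nus1, a subunit of the prenyltransferase that makes dolichol from the same isoprenoid precursors, was at 187, 185 and 190 CPM in control and at 224, 205 and 215 CPM with DKK1. The groups did not overlap (log2 fold change 0.19, SE 0.04, edgeR adjusted p = 0.0684 unpaired and 0.000269 with the block). Hsd3b7, which acts after Cyp7b1 on 7-alpha-hydroxylated oxysterols, was at 15.2, 14.7 and 15.6 CPM in control and at 17.6, 17.7 and 17.6 CPM with DKK1. The groups again did not overlap (log2 fold change 0.22, SE 0.06, adjusted p = 0.191 unpaired and 0.0446 with the block). Hsd3b7 was not called by DESeq2 with the block, nor by the blocked edgeR fit without both replicate 3 samples, while both called Nus1. Gpr183, the receptor for the ligand made from 25-hydroxycholesterol, had 2 to 7 counts per library and was not tested, and Cyp7a1, the hepatic rate-limiting enzyme of bile acid synthesis, had 0 counts in every library, which allows up to 0.133 CPM in the shallowest. The 10 tested fatty acid synthesis targets of SREBP had log2 fold changes of -0.02 to 0.13 and none was called in either fit.

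Most of the synthesis enzymes differed by replicate number, and in the same direction. In an edgeR test of the replicate number, run in the model that also holds the group and chosen after the values were seen, 1889 of the genes tested (12.9%) were called. Among the 36 sterol genes 18 were called, and among the 18 synthesis enzymes 11 (61.1%), 10 of them with replicate 3 lowest; over all genes 4.78% were called with replicate 3 lowest. The largest drop from replicate 2 to replicate 3 among those called was that of Insig1, by 0.40 on the log2 scale (adjusted p = 2.78e-05), and Msmo1, a demethylation enzyme of the sterol ring, fell by 0.34 (adjusted p = 0.000155). Msmo1 was at 55.2, 69.4 and 53.9 CPM in control and at 59.2, 70.9 and 57.7 CPM with DKK1, with replicate 2 highest and replicate 3 lowest in both groups. The median difference of the synthesis enzymes was -0.208 between replicates 3 and 2, -0.083 between replicates 3 and 1 and 0.151 between replicates 2 and 1. In CPM, 12 of the 18 enzymes (66.7%) were lowest in replicate 3 in both groups, against 15.3% of all genes tested. The largest difference among the 3 replicate numbers exceeded the DKK1 effect in 17 of the 18 (94.4%), against 74.4% of all genes. This sets the largest of 3 differences, each between fewer libraries, against the DKK1 effect alone, so it favours the replicate side.

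**Figure D3:**
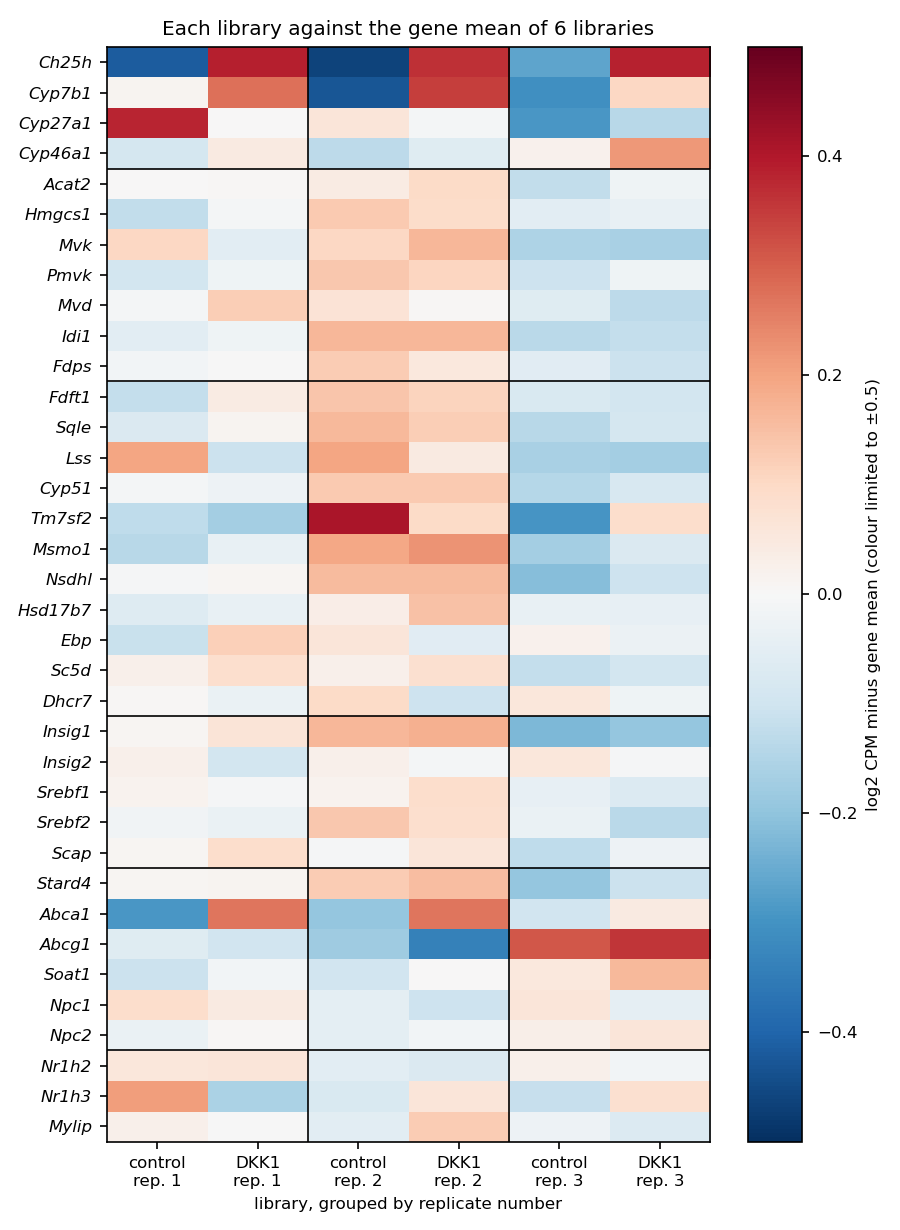
Log2 CPM of each gene in each library, minus that gene's mean over the 6 libraries, with libraries side by side by replicate number and genes in order of role; red is above and blue below the mean. The synthesis enzymes and Insig1 are mostly red in both replicate 2 libraries and blue in both replicate 3 libraries, whereas Ch25h and Abca1 alternate with treatment.

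The same test called Insig1, Srebf2 and Scap among the SREBP regulators, all 3 lowest in replicate 3, and Stard4, Abcg1, Soat1 and Npc1 among the 6 transport genes. Of these, Stard4 fell from replicate 2 to replicate 3, by 0.30, while Abcg1, Soat1 and Npc1 were higher in replicate 3 than in replicate 2, by 0.58, 0.15 and 0.07. No oxysterol enzyme, LXR receptor or Mylip was called. Of the 10 tested fatty acid synthesis targets of SREBP, 6 were called, each lowest in replicate 3: Acaca, Acly, Scd2, Elovl6, Fads1 and Fads2. Several measures of the samples moved with replicate number. Beside the macrophage markers, epithelial markers summed to 125 CPM in both replicate 3 libraries against 37.6 to 46.9 CPM in the others, endothelial markers to 63.0 to 64.4 against 21.7 to 29.3 CPM, and mesothelial markers to 53.5 to 55.3 against 23.3 to 27.7 CPM. Fibroblast markers summed to 12300 to 13000 CPM in replicate 3 against 13300 to 14700 CPM. Smooth muscle and pericyte markers were highest in replicate 3 within each group, at 10000 against 8940 to 9010 CPM in control and 8940 against 7620 to 7760 CPM with DKK1. Replicate 2 was the deepest library of each group, at 28.3 M counts in control and 34.7 M with DKK1. The part of these measures in the replicate differences was not tested.

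Promoters of 3 genes called by replicate number are shown. All 3 were higher in replicate 2 than in replicate 1, by 0.13 to 0.18, and than in replicate 3; Insig1 and Srebf2 were lowest in replicate 3, and Hmgcs1 was not. Each holds the letters of the motif bound by NF-Y, a partner of SREBP, and Hmgcs1 and Srebf2 also hold those of the SREBP motif. They were chosen for these letters (RefSeq, GRCm38.p6, plus strand for all 3). Capitals mark matches to TCACNCCA (the core of the sterol regulatory element), CCAAT on either strand (the NF-Y box, ATTGG when read on the other strand) and the NF-kB consensus given above. The windows are Hmgcs1, chr13:119690101-119690350, Srebf2, chr15:82147019-82147180, and Insig1, chr5:28071162-28071362, each ending before the annotated start.
Hmgcs1: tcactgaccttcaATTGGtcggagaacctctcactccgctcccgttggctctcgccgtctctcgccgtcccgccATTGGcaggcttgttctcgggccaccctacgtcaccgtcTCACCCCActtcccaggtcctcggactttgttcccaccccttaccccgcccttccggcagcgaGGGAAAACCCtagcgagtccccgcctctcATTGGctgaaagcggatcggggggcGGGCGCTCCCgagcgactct
Srebf2: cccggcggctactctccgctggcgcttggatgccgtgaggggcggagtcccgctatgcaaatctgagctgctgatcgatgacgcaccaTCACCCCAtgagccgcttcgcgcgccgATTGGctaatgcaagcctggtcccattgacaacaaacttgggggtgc
Insig1: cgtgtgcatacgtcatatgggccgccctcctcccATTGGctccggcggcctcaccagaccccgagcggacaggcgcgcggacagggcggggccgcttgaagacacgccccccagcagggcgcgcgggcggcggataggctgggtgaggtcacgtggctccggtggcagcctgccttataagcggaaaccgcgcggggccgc
Hmgcs1 and Srebf2 each show TCACCCCA, and all 3 windows show ATTGG at least once. Across the full windows, TCACNCCA was in 3 of the 38 promoters of the sterol genes (7.89%; Hmgcs1, Msmo1 and Srebf2) against 4.36% of all promoters. CCAAT was in 24 of the 38 (63.2%), and in 14 of the 18 promoters of synthesis enzymes (77.8%), against 37.4% of all. TGANTCA, the AP-1 motif, was in 2 of the 38 (5.26%), Dhcr7 and Msmo1, against 7.81% of all. TCACNCCA ends in the letters with which CCAAT begins, so a match of one can overlap a match of the other. A match does not show that a factor was bound.

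Levels can be compared between genes only per length, here as CPM per kilobase of merged exons in the control libraries. Merged exons join all annotated isoforms of a gene, so this length can exceed that of the transcripts present and lower the value. It was 1387 bases for Ch25h and 10787 for Lss, and ranks between genes are therefore approximate. Npc2 was highest, at 37.6 ± 1.07, followed by Insig1 at 30.2 ± 4.1 (SD, n = 3 each). Fdps, which joins isoprenoid units into farnesyl diphosphate, followed at 25.5 ± 1.78, Cyp51, the lanosterol demethylase, at 24.2 ± 2.32, Srebf2 at 23.6 ± 1.49 and Hmgcs1 at 23.5 ± 2.14. The libraries of neighbours from Insig1 to Hmgcs1 overlapped, so their order is not resolved, while those of Npc2 lay above all libraries of Insig1. Ch25h stood in rank 15 of 36, at 11.3 ± 0.836, and reached 19.1 ± 0.154 with DKK1, beside 20.0 for Acat2 and 19 for Idi1 in the DKK1 libraries. Abca1 was at 6.64 ± 0.455 and reached 8.69. The other oxysterol enzymes were among the lowest: Cyp7b1 at 3.17 ± 0.514, Cyp27a1 at 0.577 ± 0.134 and Cyp46a1, the lowest of all, at 0.316 ± 0.0179.

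**Figure D4:**
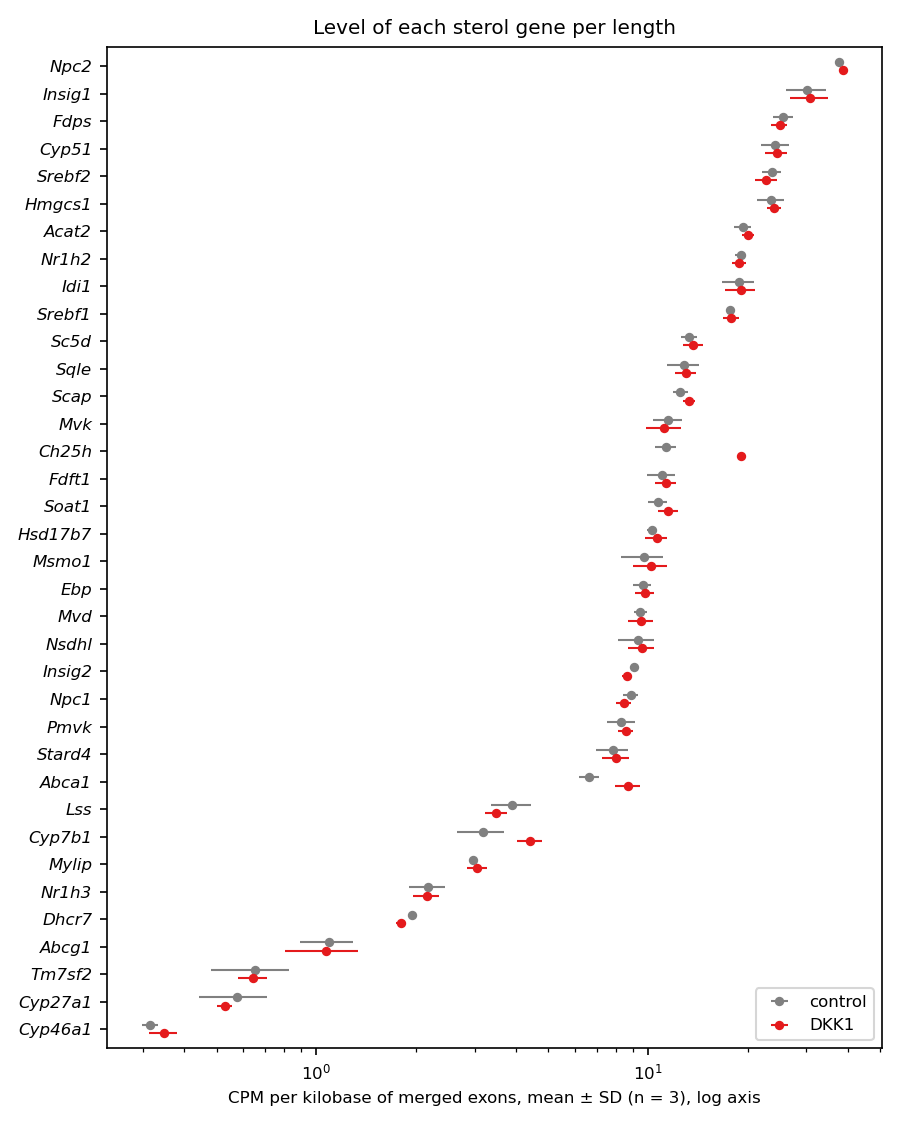
Level of each of the 36 genes as CPM per kilobase of merged exons on a log axis, mean ± SD (n = 3), in control (grey) and DKK1 (red) libraries, ordered by the control mean. Most pairs of points lie on each other; Ch25h moves from 11.3 to 19.1, and Cyp7b1 and Abca1 also sit apart.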

How the data were processed

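RNA was sequenced from 6 samples of mouse lung fibroblasts, 3 control and 3 treated with DKK1. The authors deposited RSEM-type expected counts per gene, unscaled, of which 9.62% to 10.6% were not whole; the submitters' processing notes name STAR, RSEM, edgeR 4.2.1 and the builds GRCm38 and mm10, with no roles, and the strandedness and annotation release are not given in the sources used here. Columns were matched to samples by the name in each description. Symbols matched 45143 of 45706 identifiers (98.8%), and positions, overlaps and exon lengths came from GENCODE M21 (GRCm38), which holds 98.7% of the table's transcripts.

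Expected counts were rounded and then analysed with edgeR 4.0.16 in R 4.3.3 (filterByExpr with a minimum count of 10, TMM, glmQLFit and glmQLFTest, two-sided, Benjamini-Hochberg over 14635 genes). The scripts were tested on simulated data. The SE of a log2 fold change was taken from its F statistic, as the absolute estimate over the root of F. The 36 genes and all lists were chosen with earlier results of these data known. Every gene could be named by role; those called in either fit, and Ch25h, Insig1, Hmgcs1, Sqle, Abca1 and Srebf2, got every sample's value, and further genes shown this way (Abcg1, Lss, Dhcr7, Insig2 and Msmo1) were chosen after their values were seen. Related genes were named where called in either fit, and Gpr183 and Cyp7a1 besides.

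Replicate numbers in the sample titles gave the pairing. Deviations from the group mean of same-numbered samples correlated across genes by 0.274, 0.23 and 0.405, all above 0.1, and the numbers were taken to pair the samples. Samples with different numbers were not correlated, and replicate 3 stood apart in both groups. These values therefore cannot show that replicates 1 and 2 are rightly matched, and the fits with the block rest on this pairing. What a number marks (an animal, a culture, a day) is not stated. The biological coefficient of variation was 6.99% without and 2.3% with the block. Alternatives were other scalings and filters, unrounded counts, the replicate block, leaving out each sample, DESeq2 1.42.0 and limma-voom (limma 3.58.1); the test of the replicate number and the fits without both replicate 3 samples were chosen after seeing the data. Promoters are RefSeq sequences of 300 bases (GRCm38.p6), matched by symbol for 29 of the 36 genes; those printed were shortened to end before the earliest annotated start.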

Additional observations from a re-analysis of the deposited data

How the results depend on the processing

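Ch25h was called in all 17 alternatives, with log2 fold changes of 0.72 to 0.81 and adjusted p from 3.96e-12 to 0.02. The number of all genes called, 131 in the unpaired fit, was 1379 with the replicate block, 329 with no filter on low counts, 289 by DESeq2, 551 by DESeq2 with the replicate block, 1059 with the block and both replicate 3 samples left out, and 36 to 139 with 1 sample left out. Of the sterol genes, 1 in the unpaired fit, 4 were called with the replicate block, 2 with no filter, 2 by DESeq2 and 2 without both replicate 3 samples (Ch25h and Abca1 in each of the latter 3), 4 with the block and without both replicate 3 samples (Lss, called lower, in place of Soat1), and 1 to 2 with 1 sample left out. Of the related genes, none in the unpaired fit, 2 were called with the replicate block and 1 each with no filter, by DESeq2 without or with the block, and with the block and without both replicate 3 samples. In the fit of all 6 samples by edgeR, the replicate block changed no other call among the sterol and related genes than those of Cyp7b1, Abca1, Soat1, Nus1 and Hsd3b7; the calls it changed among cell type markers stand beside Ch25h. DESeq2 with the block called none of Abca1 (adjusted p = 0.078), Cyp7b1 (0.229) and Soat1 (0.675), nor Hsd3b7 among the related genes. No sign was changed in any alternative for 12 of the 36 genes, and 24, none of them called in the unpaired or blocked fit, changed sign when 1 sample was left out. Their log2 fold changes then ran from -0.278 to 0.0487 (Cyp27a1), -0.00371 to 0.0865 (Acat2), -0.0316 to 0.1 (Hmgcs1), -0.138 to 0.0369 (Mvk), -0.0127 to 0.127 (Pmvk), -0.0619 to 0.0632 (Mvd), -0.0776 to 0.107 (Idi1), -0.0862 to 0.0205 (Fdps), -0.0186 to 0.121 (Fdft1), -0.0449 to 0.12 (Sqle), -0.0622 to 0.0863 (Cyp51), -0.174 to 0.221 (Tm7sf2), -0.0387 to 0.199 (Msmo1), -0.0596 to 0.131 (Nsdhl), -0.0276 to 0.0776 (Hsd17b7), -0.0438 to 0.0549 (Ebp), -0.0065 to 0.102 (Sc5d), -0.0781 to 0.127 (Insig1), -0.0458 to 0.04 (Srebf1), -0.0549 to 0.113 (Stard4), -0.253 to 0.0964 (Abcg1), -0.0595 to 0.00599 (Nr1h2), -0.0809 to 0.0897 (Nr1h3) and -0.0236 to 0.0829 (Mylip). Medians by role then ran from 0.236 to 0.361 (oxysterol), -0.033 to 0.086 (early mevalonate), -0.045 to 0.086 (sterol ring), -0.071 to 0.04 (SREBP regulators), 0.027 to 0.072 (transport) and -0.052 to 0.061 (LXR and Mylip). Mvd was at -0.00144 with the replicate block and -0.00273 by DESeq2 with it, Cyp51 at -0.0155 and -0.0151 without both replicate 3 samples (without and with the block), and Srebf1 at -0.000423 by DESeq2 with the block. A longer form of the sterol regulatory element, of 10 letters, was in 0 promoters of the sterol genes, against 3 with TCACNCCA. The cause of these changes was not tested. In the unpaired fit, intervals of most synthesis enzymes allow log2 changes of about 0.2 either way; with the block they are narrower (Hmgcs1 -0.05 to 0.09, Cyp51 -0.05 to 0.07). Genes near 1 CPM (Cyp27a1, Cyp46a1) allow more.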
